A study of Mus musculus with 46 samples.

Results

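The activin, BMP and TGF-beta signaling genes described here were the 9 genes Inhba, Inhbb, Bmp3, Acvr1b, Acvr1c, Tgfbr1, Acvr2a, Smad3 and Smad7, taken by symbol from the 31854 genes of the RNA count table, together with every ATAC-seq peak whose nearest edge lay within 50 kb of a start site of 1 of them. All 9 genes were in the table. Of 123721 peaks counted across feeding states, 68 were such peaks, and of 67472 peaks counted in nuclei sorted as AgRP-positive or AgRP-negative, 46 were. The study profiled AgRP and POMC neurons of the arcuate nucleus (ARC) in male C57BL/6 J NuTRAP mice, in which Cre recombinase turns on a GFP-tagged ribosomal subunit and an mCherry-tagged nuclear membrane protein. AgRP-IRES-Cre marked AgRP neurons (NuTRAP AgRP) and POMC-IRES-Cre marked POMC neurons (NuTRAP Pomc), so both groups carried the tag, and a cell was tagged wherever the Cre driver was or had been active. Mice of 6 to 11 weeks, the age given for NuTRAP AgRP mice, were kept on chow (fed) or fasted for 18 to 20 hours. Fed and fasted mice then received PBS and leptin-treated mice were fasted and received leptin at 5 mg/kg, and tissue was taken 3 hours after the injection. Ribosome-bound RNA (TRAP) was sequenced from pools of 4 ARCs in 3 fed, 4 fasted and 4 leptin-treated AgRP samples and in 2 POMC samples of each state. ATAC-seq, which reads open chromatin, was run on sorted AgRP-positive nuclei in 2 samples of each state, and on AgRP-positive and AgRP-negative nuclei of fed mice labelled as given no treatment in 2 samples each. According to the paper, these positive and negative nuclei were sorted out of shared pools of ARCs. The negative nuclei were labelled as non-AgRP neurons but were sorted by the absence of GFP, so other cells of the ARC may be among them. Peak positions from CUT&RUN, which maps where a protein sits on chromatin, were used from 1 sample for CTCF in AgRP nuclei. They were also used from 1 sample labelled as IRF3 in AgRP neurons of an IRF3-2D model, whose IRF3 is constitutively active.

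Activins, BMPs and TGF-betas are secreted dimers of 1 superfamily. A dimer brings type II receptors such as Acvr2a together with type I receptors such as Acvr1b, Acvr1c and Tgfbr1, and the type II kinase activates the type I kinase. The activin and TGF-beta type I receptors phosphorylate Smad2 and Smad3, the BMP type I receptors phosphorylate Smad1, Smad5 and Smad9, and both kinds of Smad enter the nucleus with Smad4. Smad7 and the pseudoreceptor Bambi hold the signal back. Inhba and Inhbb encode the activin subunits, Bmp3 encodes a BMP that can act through activin receptors, and Acvr1c, best known from fat and endocrine tissue, is a receptor for activin B, Nodal and related ligands.

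RNA libraries held 25581041 to 54511107 counts on genes, and ATAC-seq libraries 8263234 to 17190963 across states and 8685497 to 11177208 in sorted nuclei. Agrp, Npy, Corin, Otp and Ghsr together took 1030 to 5700 CPM (reads scaled to a common library size over all 17 RNA libraries) in AgRP libraries and 47.6 to 127 in POMC libraries, and 5 POMC neuron markers took 1820 to 3260 in POMC libraries and 286 to 410 in AgRP libraries, so the labels and the markers went the same way. The AgRP libraries numbered 4 (1 in each state) and the POMC libraries numbered 2 stood apart: 8 astrocyte markers summed to 21400 to 27000 and 24700 to 28400 CPM there, against 3050 to 4800 in the other AgRP and 6230 to 7150 in the other POMC libraries. Acvr1b, Acvr2a, Bmp3 and Smad3 each had their highest AgRP value in library 4 in 3 of 3 states and their highest POMC value in library 2 in 3 of 3 states. The part of the astrocyte RNA in these values was not tested, and results are given with and without those libraries where they differ. In pooled tissue, fewer cells of a type and less RNA per cell cannot be told apart.

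Acvr1c was the gene of the set that set AgRP neurons apart from POMC neurons. It held 622, 659 and 432 CPM in the fed AgRP libraries 1, 3 and 4, and 62.7 and 71.2 CPM in the fed POMC libraries. Every AgRP library lay far above every POMC library. In edgeR's quasi-likelihood test across all genes, where a gene was called if its adjusted p (FDR, by Benjamini-Hochberg) was under 0.05 and its log2 fold change lay past 0.5 either way, Acvr1c was higher in AgRP neurons by 3.09 on the log2 scale (SE 0.237, FDR 0.00398). The difference was 3.34 without the libraries that stood apart, and the call was kept when any 1 library was left out. It was the 1 gene called of the 8 tested, where 2.17% of all genes tested were called, and Inhba lay under the level for testing, a mean of 1 CPM. The line, the Cre driver and any batch of library making cannot be told apart in this comparison.

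Expressed per length of transcript, the scale on which genes can be compared, Acvr1c ranked 2 of 17 receptors and co-receptors in fed AgRP neurons, at 47.6 ± 10.2 CPM per kb (SD, n = 3). Its neighbours in that order were Bmpr2, a type II BMP receptor, at 52.7 ± 26.5 and the activin receptor Acvr1b at 40.7 ± 7.10 CPM per kb, and the 3 levels overlapped within their SD. Acvr2a, the type II activin receptor, followed at 15.9 ± 2.48 and Tgfbr1, the type I TGF-beta receptor, at 6.57 ± 0.603 CPM per kb, and these levels did not overlap with each other. In fed POMC neurons Acvr1c ranked 11 of 17, at 5.58 ± 0.502 CPM per kb (n = 2), next to Acvr2b at 6.06 ± 2.10. Acvr1b was at 50.6 ± 5.29, Acvr2a at 17.2 ± 3.73 and Tgfbr1 at 6.88 ± 0.529 CPM per kb in POMC neurons, within 1 rank of their order in AgRP neurons.

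**Figure D1:**
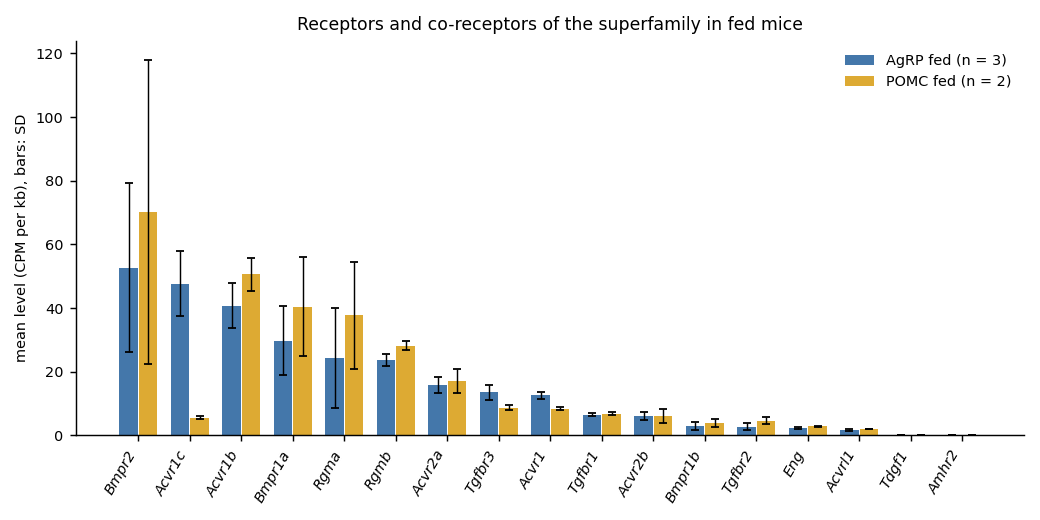
Mean level of 17 receptors and co-receptors in CPM per kb of transcript in fed AgRP (n = 3) and fed POMC (n = 2) TRAP RNA; error bars are SD between libraries. Acvr1c stands at 47.6 CPM per kb in AgRP and 5.58 in POMC neurons, while Acvr1b and Acvr2a have similar bars in both.

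Among 33 ligand genes, Bmp3 ranked 4 in fed AgRP neurons at 3.77 ± 0.656 CPM per kb and 5 in fed POMC neurons at 3.14 ± 0.318. Inha, the alpha subunit of inhibin, at 4.03 ± 0.373, and Tgfb2, at 2.94 ± 0.933, lay on either side of it in AgRP neurons and overlapped with it within their SD. Inhbb ranked 12 at 0.590 ± 0.0484 and Inhba ranked 13 at 0.537 ± 0.0954 CPM per kb in AgRP neurons, so both activin subunits were far below the receptors, and their levels overlapped. Smad3, a signal-carrying Smad, stood at 3.43 ± 1.07 CPM per kb in AgRP neurons, against 17.8 ± 1.77 for its relative Smad2 and 28 ± 2.10 for Smad4. Smad7 stood at 2.80 ± 0.598 CPM per kb. The 7 tested genes other than Acvr1c differed between fed AgRP and POMC neurons by -0.46 to 0.27 on the log2 scale and none was called. When all 3 states of both lines were fitted together by edgeR, Acvr1b (-0.53, FDR 0.00179) and Smad3 (-0.64, FDR 0.0244) were also called as lower in AgRP neurons. Both genes were highest in the libraries high in astrocyte markers in 3 of 3 states of each line. Those libraries are a larger share of the POMC than of the AgRP libraries. The fit was not repeated without them, and their part in these 2 calls was not tested.

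**Figure D2:**
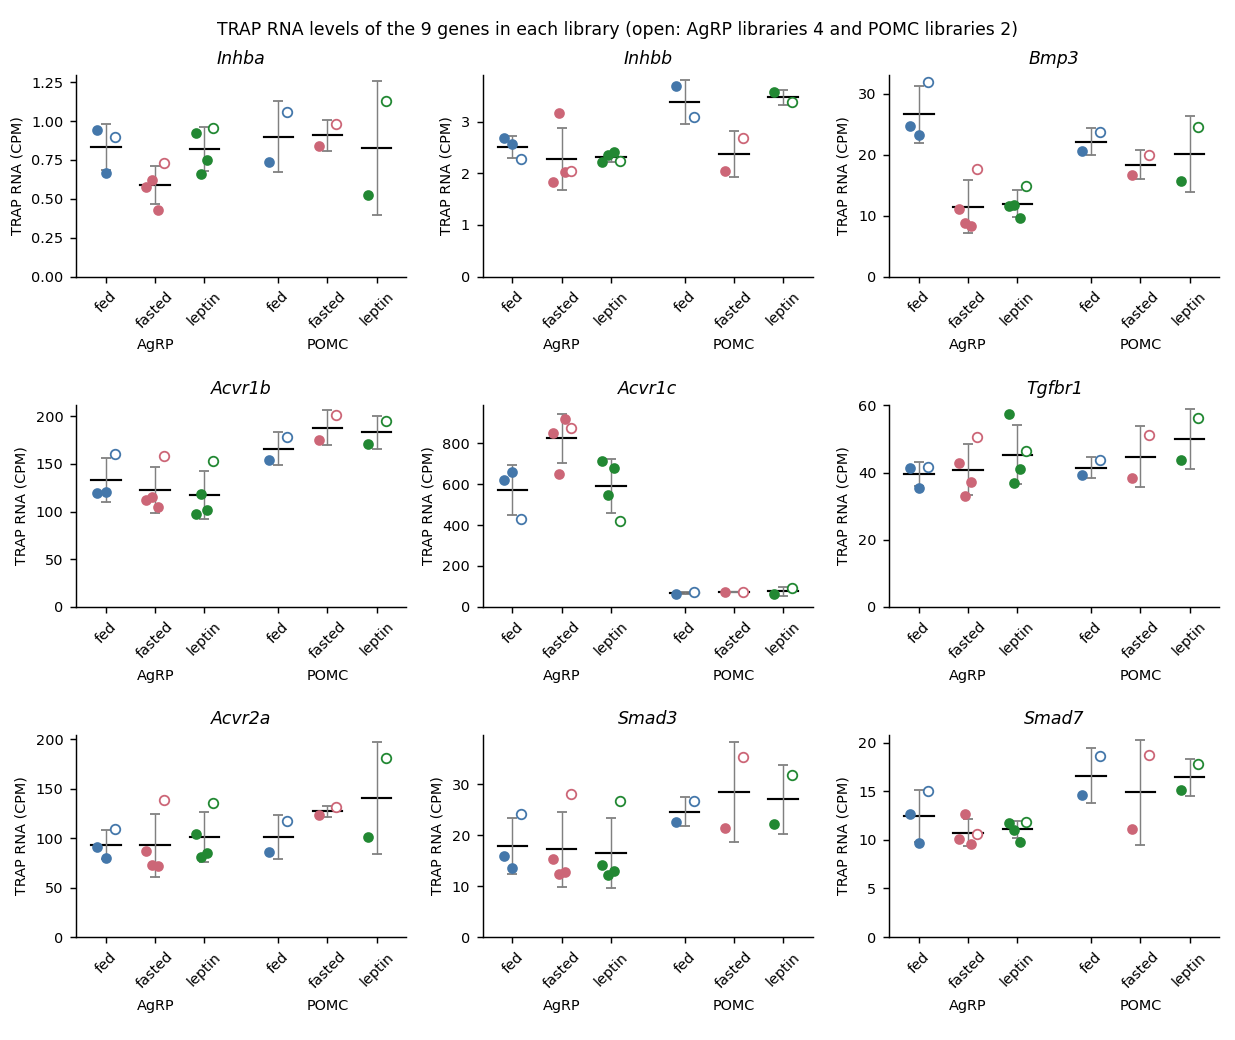
CPM of the 9 genes in each TRAP RNA library, by line and feeding state; black lines are means, grey bars SD, and open points the AgRP libraries 4 and POMC libraries 2. Bmp3 is lower in every fasted and leptin-treated AgRP library than in every fed one, and Acvr1c is low in all POMC libraries.

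Fasting changed the ligand gene Bmp3. Bmp3 held 24.7, 23.2 and 31.9 CPM in the fed AgRP libraries and 11.1, 8.75, 8.35 and 17.7 CPM in the fasted AgRP libraries. All fasted libraries lay below all fed libraries, with library 4 the highest of each state. The change was -1.20 on the log2 scale (SE 0.263, FDR 0.024 by edgeR), which made Bmp3 the 1 gene called of the 8 tested, where 3.89% of all genes were called either way and 1.07% were called lower. Over the same libraries the marker lists of other cells had median changes of -0.22 (8 astrocyte genes), -0.31 (9 oligodendrocyte genes) and -0.59 (6 tested microglia genes), with 0 of them called by edgeR and 5 at an unadjusted p under 0.05, and their part in the fall of Bmp3 was not tested. With the replicate number as a block, which paired these libraries, it was -1.20 (FDR 3.82e-05), by DESeq2 its FDR was 0.000225, and without the libraries numbered 4 it was -1.37 (FDR 0.00218). When 1 library was left out in turn the change ranged from -1.51 to -1.07, and the call was kept in 1 of 7 such fits, the one without fasted library 4, with FDRs up to 0.0983 without fed library 4. Scaling by library size alone turned the split of all calls from 378 higher and 143 lower to 148 higher and 90 lower.

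After leptin, Bmp3 RNA stayed within the range of fasted mice. The leptin-treated AgRP libraries held 11.5, 11.7, 9.60 and 14.9 CPM of Bmp3, inside the range of the fasted libraries. The change from fasted was 0.05 (SE 0.246, FDR 1.0 by edgeR). Against fed mice Bmp3 was lower by -1.15 on the log2 scale after leptin (SE 0.263, FDR 0.0236 by edgeR), again the 1 gene called of 8, where 5.48% of all genes were called. This comparison shares its fed libraries with the comparison of fasted and fed mice, and the call was also kept in 1 of 7 fits with 1 library left out, the one without leptin-treated library 4, with FDRs up to 0.0931 without fed library 4. In POMC neurons Bmp3 held 20.6 and 23.7 CPM in fed, 16.7 and 20 in fasted and 15.7 and 24.5 in leptin-treated libraries, so the fasted libraries lay just below the fed ones and the leptin-treated ones spanned both. Its fasting change there was -0.27 (SE 0.239). The difference between the fasting changes of the lines was -0.94 (SE 0.402, FDR 0.485 by edgeR) and was not called, and with the replicate number as a block it was -0.94 (SE 0.188, FDR 0.00613) and was called, as 6.22% of all genes then were. That fit also pairs the POMC libraries by number, of which there are 2 a state.

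Acvr1c moved the other way, and its call hung on the pairing of the libraries. It held 852, 648, 919 and 876 CPM in the fasted AgRP libraries 1 to 4, beside the 622, 659 and 432 of the fed libraries 1, 3 and 4. The fasted library 2, which has no fed partner, lay inside the fed range and the other 3 lay above it. Fitted on state alone, Acvr1c was higher after fasting by 0.54 on the log2 scale (SE 0.204, FDR 0.168 by edgeR), which was not called. With the replicate number as a block the change was 0.63 (SE 0.126, FDR 0.00381), and Acvr1c was called, so that 2 of 8 genes were called where 6.94% of all genes were. Without the libraries numbered 4 the change was 0.32 (FDR 0.266); library 4 had the lowest fed value. The 5 AgRP neuron markers moved the same way, with sums of 1030 to 1680 CPM in fed, 2100 to 5520 in fasted and 1440 to 5700 in leptin-treated libraries and a median fasting change of 0.66, and their part in the Acvr1c values was not tested. Of these markers, the paper names Agrp, Npy and Otp as raised by fasting, so their sum does not measure AgRP neuron content alone. The exons of Acvr1c overlap those of Gm13544 and the exons of Acvr2a those of Orc4, and reads counted without strand cannot be told apart there. The leptin-treated libraries held 713, 548, 678 and 422 CPM of Acvr1c, of which 2 overlapped with the fasted range. The change from fasted to leptin-treated was -0.49 (SE 0.187, FDR 0.376 by edgeR), -0.50 with the block (FDR 0.0157, called) and -0.32 without the libraries numbered 4 (FDR 0.415). No gene of the 8 was called in that comparison without the block, where 1.83% of all genes were called, 1 gene of the 8 had an unadjusted p under 0.05, and DESeq2 called 0. With the block 1 of 8 was called, where 2.91% of all genes were. Leptin-treated and fed libraries differed by 0.05 (SE 0.201, FDR 0.932 by edgeR) in Acvr1c. The paper, which fitted edgeR on the feeding state, names Acvr1c among the genes that rose with fasting and fell with leptin. The fits on state alone here called neither change, and the source of this difference was not tested.

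**Figure D3:**
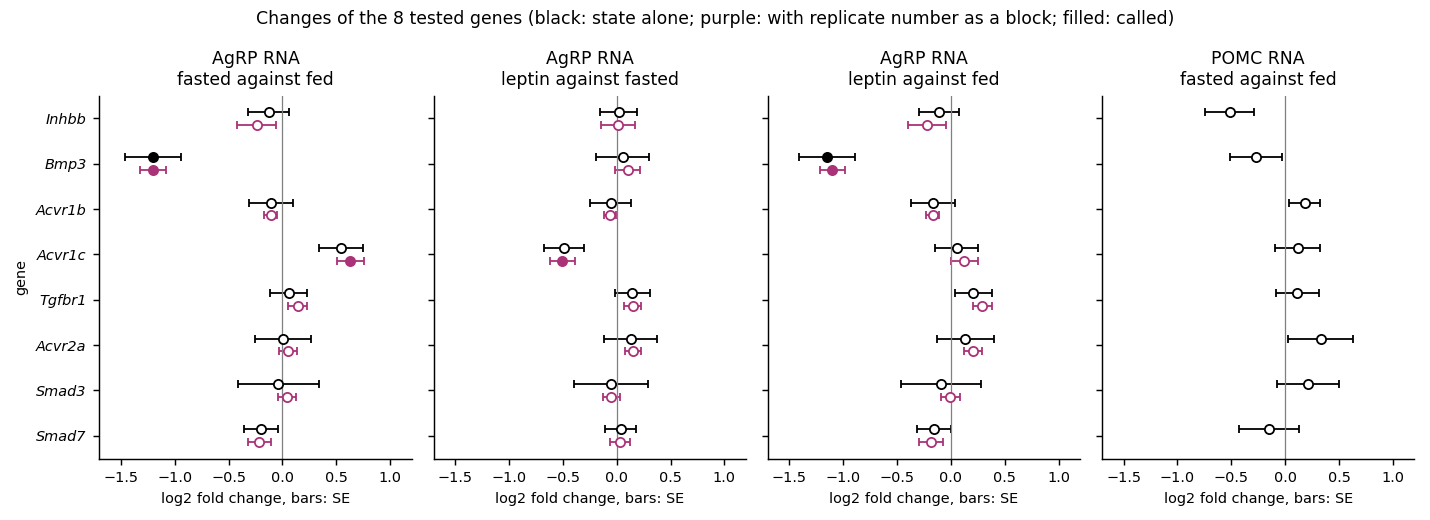
Log2 fold changes with SE of the 8 tested genes in 4 comparisons; black points were fitted on state alone and purple points with the replicate number as a block, and filled points were called. Bmp3 lies near -1.20 and -1.15 in the comparisons with fed AgRP mice, and Acvr1c is filled in the blocked fits of fasting and of leptin against fasted and in no other fit shown.

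The activin subunit Inhbb was not called in any comparison of states, and Inhba was not tested. Inhbb held 2.69, 2.56 and 2.28 CPM in fed, 1.84, 3.16, 2.03 and 2.05 in fasted and 2.22, 2.36, 2.42 and 2.24 in leptin-treated AgRP libraries, so the fasted libraries spanned the other states. In POMC neurons it held 3.68 and 3.08 CPM in fed, 2.05 and 2.68 in fasted and 3.57 and 3.37 in leptin-treated libraries. Both fasted POMC libraries lay below the others, and the log2 fold change from fed, -0.52 (SE 0.227, FDR 1.0 by edgeR), was not called. Inhba held 0.665 to 0.94 CPM in fed, 0.431 to 0.728 in fasted and 0.658 to 0.957 in leptin-treated AgRP libraries, so the states overlapped with the lowest value in a fasted library. It held between 0.522 and 1.13 CPM in all POMC libraries. Its mean lay under the level set for testing in both lines.

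The states overlapped in the other receptors. Acvr1b ranged from 97.8 to 160.0 CPM over the 11 AgRP libraries, Acvr2a from 71.7 to 139 CPM and Tgfbr1 from 33.0 to 57.4 CPM. For Acvr1b and Acvr2a the high ends were libraries numbered 4. Their fasting changes in AgRP neurons were -0.11 (SE 0.203) for Acvr1b, 0.00 (SE 0.262) for Acvr2a and 0.06 (SE 0.173) for Tgfbr1, the sign of the last 2 turning with the scaling. Smad3 ranged from 12.1 to 28.2 CPM with a fasting change of -0.04 (SE 0.372), its highest value in each state being library 4. Smad7, the inhibitory Smad, ranged from 9.60 to 15.0 CPM with a fasting change of -0.20 (SE 0.156). In POMC neurons 0 of the 8 genes were called by edgeR in any of the 3 comparisons of states, where 0% of all genes were called, 0 had an unadjusted p under 0.05 and DESeq2 called 0. The fasting change of Acvr1c in POMC neurons was 0.12 (SE 0.206). The fasting and leptin effects differed between the lines in 0 of the 8 genes by edgeR, where 0.164% and 0.0819% of all genes were called. For the fasting effect 1 gene had an unadjusted p under 0.05, for the leptin effect 0 had, and DESeq2 called 0 in either.

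Other genes of the pathway were read from lists by role. Of 13 ligand genes tested in AgRP neurons 1 rose after fasting, Bmp2, and 1 fell, Bmp3, where 3.89% of all genes were called either way. The median change of the ligand genes was -0.13 against 0.02 for all genes. Bmp2, a ligand of BMP receptors, held 5.61, 4.28 and 5.91 CPM in fed and 12.5, 12.0, 9.41 and 7.28 CPM in fasted libraries. All fasted values were above all fed values, and the change was 0.98 (FDR 0.029 by edgeR), a call lost in 6 of 7 fits with 1 library left out and kept without fasted library 4. Of 15 receptor and 13 Smad and cofactor genes tested, 0 were called by edgeR without the block or by DESeq2, 1 of each list had an unadjusted p under 0.05, and their median changes were -0.05 and -0.01. With the block, where 6.94% of all genes were called, the 1 receptor gene called was Acvr1c, and Nodal, a ligand, also fell (-0.57, FDR 0.0332 by edgeR).

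Bambi was the gene of the pathway that followed both states. Of 16 inhibitor genes tested, Bambi, a receptor without a kinase that blocks BMP and TGF-beta signaling, rose after fasting and none fell. Of all genes 3.89% were called either way. It held 16.2, 18.5 and 18.4 CPM in fed, 30.6, 30.9, 33.7 and 36.7 in fasted and 17.1, 18.3, 18.7 and 14.6 in leptin-treated AgRP libraries. Fasted libraries lay above all others, and fed and leptin-treated libraries overlapped. Bambi rose by 0.91 after fasting (FDR 0.00155 by edgeR) and fell by 0.94 from fasted to leptin-treated (log2 fold change -0.94, FDR 0.000652), and every fit with 1 library left out kept both calls. With the replicate number as a block, 2 inhibitors of BMPs, Nog (-0.58, FDR 0.0307 by edgeR) and Chrd (-0.53, FDR 0.0105), were also called, both as lower after fasting. In that fit 6.94% of all genes were called. Bambi was also higher in fed AgRP than fed POMC neurons by 1.31 (FDR 0.00822 by edgeR), a call lost without fed AgRP library 1 or fed POMC library 1 (FDR up to 0.0622).

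Of 11 target genes of the pathway tested, 2 (Cdkn1a and Junb) rose after fasting and none fell, where 3.89% of all genes were called either way. Cdkn1a, a cell cycle inhibitor that many other signals induce, rose by 2.61, and Junb, a part of AP-1, rose by 0.57, a call lost in 3 of 7 fits with 1 library left out, those without fasted library 3, fed library 1 or fed library 4. With the replicate number as a block, where 6.94% of all genes were called, a target gene was added, Ccn2, a secreted matrix protein. Its change was 0.99 (FDR 0.0103 by edgeR), against 1.01 (FDR 0.118) without the block. Between the lines in fed mice Tgfbi, an extracellular matrix protein, was higher in AgRP neurons by 3.78 and Fn1, fibronectin, was lower (log2 fold change -2.38, FDR 0.00726 by edgeR), a call lost without fed AgRP library 1 (FDR 0.0724). None of these target genes responds to this pathway alone.

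The genes whose log2 CPM ran most closely with Acvr1c over the 11 AgRP libraries were Aebp2 (Pearson r 0.923), Anp32e (0.916), Fndc3a (0.915), Gnb4 (0.910) and Map9 (0.906). The closest gene to Bmp3 was Vwa3a (0.980), to Acvr1b Wdfy2 (0.979), to Acvr2a Pcyt1a (0.988), to Smad3 Xkr6 (0.997) and to Tgfbr1 Dennd4c (0.950). The closest gene to Smad7 was Dock4 (0.946), to Inhbb B830017H08Rik (0.943) and to Inhba Pank1 (0.940). These values describe 11 libraries that share state, replicate number and the high astrocyte markers of library 4, and they carry no test.

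Open chromatin around Acvr1c, like its RNA, was higher in AgRP neurons than in the cells they were compared with. In sorted nuclei of fed mice, 5 of 7 Acvr1c peaks were more open in AgRP-positive than AgRP-negative nuclei and none was less open. The peak 11.1 kb upstream of the start site held 0.369 and 0.592 CPM in negative and 10.2 and 12.8 CPM in positive nuclei, a difference of 4.55 on the log2 scale (SE 0.489, FDR 1.3e-18 by edgeR). The peak 6.77 kb upstream held 2.83 and 3.20 CPM in negative and 26 and 25.4 CPM in positive nuclei (log2 fold change 3.09, FDR 1.21e-28 by edgeR). Values of the groups did not come near each other at either peak. The peak at the start site itself held 14.5 and 11.7 CPM in negative and 35.3 and 27.7 CPM in positive nuclei (1.26 on the log2 scale), and peaks 32.3 kb upstream (1.88) and 30.4 kb downstream, in an intron (2.16, lost without negative library 1), were also called. The peak 32.3 kb upstream lies within the neighbouring gene Acvr1. Both peaks nearest to the gene on its upstream side overlapped a CTCF peak of AgRP nuclei. So did 11 of the 46 peaks of the 9 genes in sorted nuclei, and 27.2% of all peaks counted there.

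Over all 9 genes, 13 of 46 peaks were more open and 10 less open in AgRP-positive nuclei, 50.0% of those tested, where 39.6% of all peaks were called, 23.9% as more and 15.6% as less open. Without either AgRP-negative library 14 peaks were called, and DESeq2 called 17. Of 5 Bmp3 peaks 3 were more open in positive nuclei, at 22.6 kb upstream (1.68), at 8.47 kb downstream in an intron (1.86) and at 0.333 kb downstream of the start (0.93, a call lost without negative library 2). Tgfbr1 had 1 more open peak, 42.0 kb upstream (2.02), called with any 1 library left out. Acvr2a had 1, 15.0 kb upstream (2.31), a call that DESeq2 did not make. Without either negative library its difference was 2.28 to 2.34 and the call was lost. With a positive library left out this peak was under the level for testing. It therefore reached that level through the positive nuclei, the group in which it was higher. Of the activin subunit genes, Inhba had 1 more open and 2 less open peaks of 4, and Inhbb 2 less open of 5, and each of these but the next one named was lost without at least 1 library. The Inhba intron peak 11.5 kb downstream, also within the gene B230303A05Rik, held 17.5 and 20.7 CPM in negative and 3.46 and 5.16 CPM in positive nuclei (-2.14), and the start site of Inhbb held 32.6 and 27.6 against 21.4 and 14.3 CPM (-0.76, lost without positive library 2). Smad3 was mixed, with 2 peaks more open and 3 less open, among them its start site (-0.82). The start site and the peak 22.1 kb upstream were called with any 1 library left out, and the other 3 calls were each lost in 3 of 4 such fits. Smad7 had 2 less open peaks by edgeR, calls lost in 4 of 4 (47.6 kb upstream) and 3 of 4 (1.12 kb downstream) such fits and not made by DESeq2, and of 8 Acvr1b peaks 1 was less open, at the fold threshold (-0.50, FDR 0.0467 by edgeR) and not by DESeq2. Scaling by library size alone shifted the median of all peaks by 0.16 and moved the calls over all peaks from 15926 more and 10405 less open to 18218 and 7303.

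The peaks of the 9 genes that were called with fasting all lay over 1 kb from the start sites. Of 59 tested peaks, 15 were more open and 7 less open in fasted than fed mice, 37.3%, where 27% of all tested peaks were called, 18.1% as more and 8.88% as less open. Leaving out 1 library gave 13 to 16 called peaks, the fewest without fed library 2 (13) and fasted library 1 (14). None of the 9 start-site peaks was called by edgeR or by DESeq2, although 4 of 9 had an unadjusted p under 0.05. Those of Acvr2a (-0.50, FDR 0.0224 by edgeR) and Smad7 (-0.44, FDR 0.0444 by edgeR) passed the FDR but fell short of the fold threshold. The share of start-site peaks called over all genes was not computed, so these counts are not read as particular to the 9 genes. The paper reports that most peaks that differed between states lay in intergenic and intronic regions. Smad3 had 5 more open and 2 less open peaks of 12 tested, Acvr1b 3 and 2 of 10, Acvr1c 2 and 0 of 10, Tgfbr1 2 and 0 of 4 and Bmp3 1 and 2 of 6. Acvr2a and Inhba had 1 more open peak each, Inhbb 1 less open, and Smad7 had 0 called of 6, by DESeq2 also 0, with 2 at an unadjusted p under 0.05. Of the start-site peaks, 0 were called by edgeR or DESeq2 after leptin either, with 0 at an unadjusted p under 0.05 against fasted and 4 against fed.

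**Figure D4:**
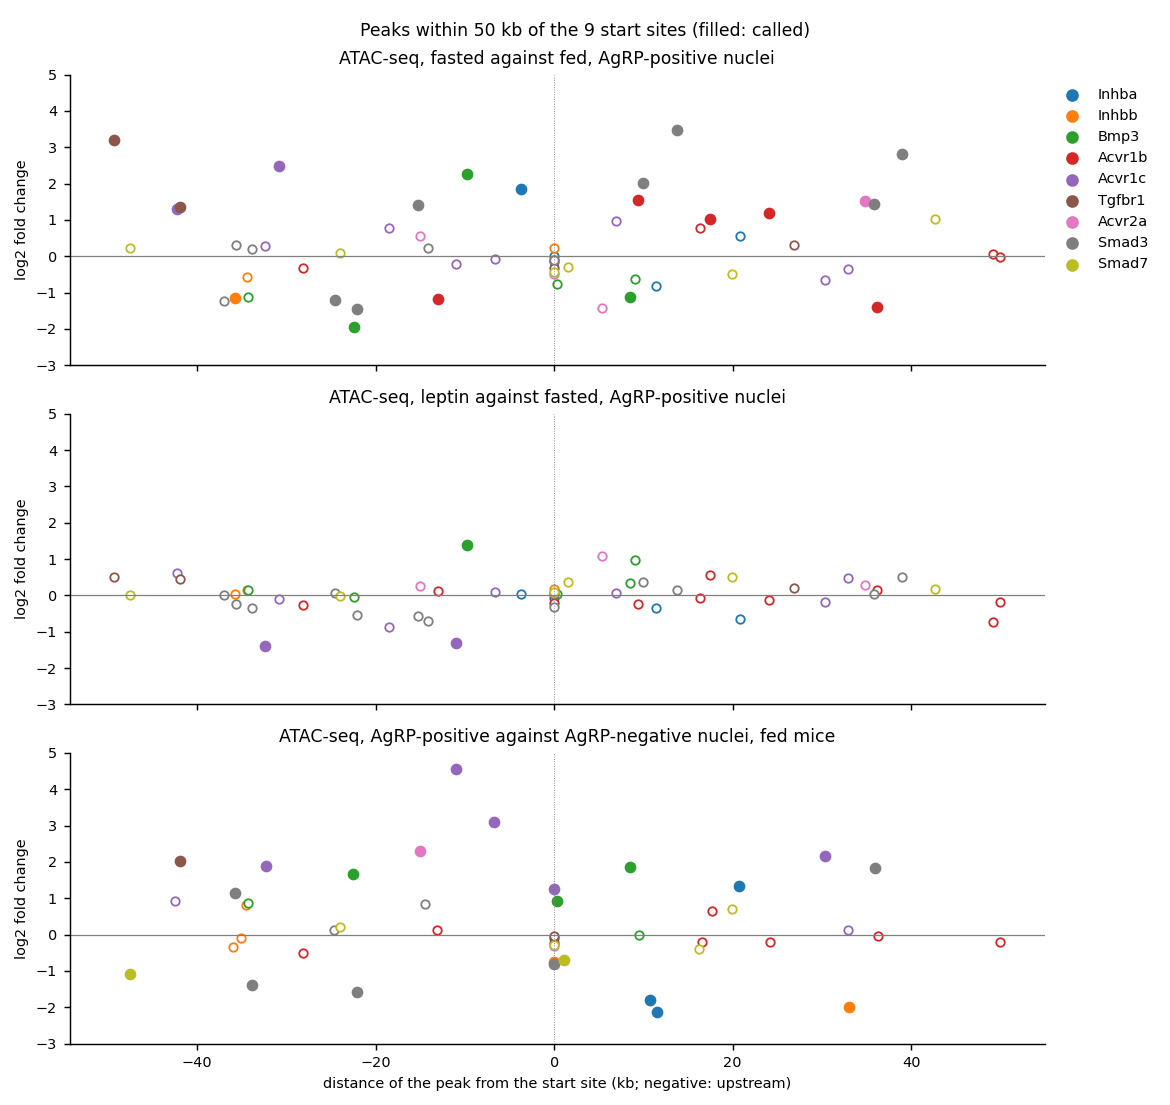
Log2 fold change of each tested peak against its distance in kb from the start site of its gene, for fasting (59 peaks), leptin against fasted (59 peaks) and AgRP-positive against AgRP-negative nuclei (46 peaks); filled points were called. In the panels of feeding states no filled point lies at a start site, and in the panel of sorted nuclei the highest points are Acvr1c peaks upstream of its start.

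At Bmp3, whose RNA fell, a peak 22.4 kb upstream closed. It held 28.4 and 16.5 CPM in fed, 6.25 and 5.04 in fasted and 4.79 and 5.97 in leptin-treated nuclei. Both fed libraries lay above all others, and the change with fasting was -1.94 (SE 0.306, FDR 0.000173 by edgeR), kept with any 1 library left out. Its change from fasted to leptin-treated was -0.06. It overlapped the peak 22.6 kb upstream that was more open in AgRP-positive nuclei. The intronic peak 8.51 kb downstream also closed (-1.13, FDR 0.0187 by edgeR), a call lost without fasted library 1 or fed library 2, and the peak over the start of the gene held 17.7 and 11.3 CPM in fed and 7.20 and 9.34 in fasted nuclei without passing the test (-0.76, FDR 0.0582 by edgeR). A peak 9.77 kb upstream opened from 0.372 and 0.505 CPM in fed to 1.27 and 3.11 CPM in fasted nuclei (2.25, FDR 0.0206 by edgeR) and to 5.0 and 6.47 CPM after leptin. Its fed values lay under 1 CPM, and it reached the level for testing through the fasted and leptin-treated libraries. The leptin step was 1.39 (FDR 0.0343 by edgeR), not called by DESeq2 (FDR 0.263), and with 1 library left out the fasting call was kept only without fasted library 1.

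At Acvr1c, 2 of 10 tested peaks opened with fasting, both upstream, a share close to the 18.1% of all tested peaks that opened. Another 2 upstream peaks closed after leptin, with calls that rested on single libraries. The peak 30.8 kb upstream, within the gene Acvr1, held 1.24 and 2.23 CPM in fed, 10.3 and 10.5 in fasted and 9.02 and 10.4 in leptin-treated nuclei, so both fed libraries lay far below the rest. Its fasting change was 2.48 (SE 0.388, FDR 0.000163 by edgeR), kept with any 1 library left out, and its change from fasted to leptin-treated was -0.09. The peak 42.3 kb upstream, also within Acvr1, opened with fasting as well (1.31, FDR 0.0237 by edgeR), a call lost without fasted library 1 or fed library 1. The peak 11.0 kb upstream held 27.8 and 14.7 CPM in fed, 23.1 and 12.0 in fasted and 8.33 and 5.91 in leptin-treated nuclei. Fed and fasted libraries overlapped and both leptin-treated libraries lay below them, with a change of -1.32 from fasted (FDR 0.0344 by edgeR). The peak 32.4 kb upstream held 13.8 and 11.3 CPM in fed, 17.8 and 12.3 in fasted and 7.98 and 3.91 in leptin-treated nuclei, with a change of -1.38 from fasted (FDR 0.0166 by edgeR). With 1 library left out, the first call was kept without fasted library 2 and lost without any other, and the second was kept without fasted library 2 or leptin-treated library 1 and lost without fasted library 1 or leptin-treated library 2. They were 2 of the 3 calls among the 59 peaks in that comparison, the other being the Bmp3 peak 9.77 kb upstream, or 5.08%, where 3.08% of all peaks were called. Both peaks that closed after leptin overlapped peaks more open in AgRP-positive nuclei, the fasting-opened peak 30.8 kb upstream overlapped no peak of the sorted table, and the one 42.3 kb upstream overlapped a sorted peak that was not called (0.93, FDR 0.0566 by edgeR). In leptin-treated against fed nuclei, which share libraries with the other comparisons, 14 peaks of the 9 genes were more open and 10 less open of 59, 40.7%, where 36.8% of all peaks were called, 23.3% as more and 13.5% as less open.

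**Figure D5:**
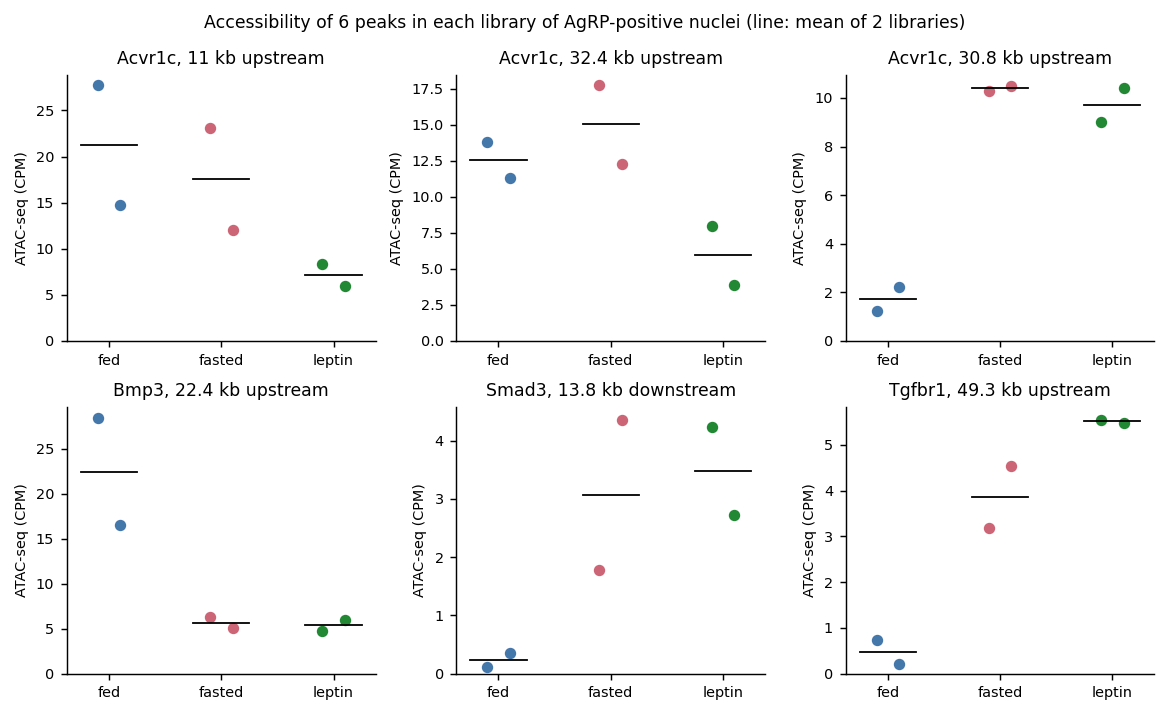
CPM of 6 peaks in the 2 fed, 2 fasted and 2 leptin-treated libraries of AgRP-positive nuclei; lines are means. The Acvr1c peaks 11.0 and 32.4 kb upstream are lowest after leptin, whereas the peaks of Acvr1c 30.8 kb upstream, Smad3 and Tgfbr1 are low in fed mice only and the Bmp3 peak is high in fed mice only.

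The peaks that fasting opened held the AP-1 motif far more often than peaks in general. AP-1 is the dimer of FOS and JUN proteins, and TGANTCA, its core, was searched on both strands in the central 300 bases of each peak. It was in 12 of the 15 opened peaks of the 9 genes (80.0%) and in 1 of the 7 closed peaks (14.3%), against 71.1% of all opened, 5.41% of all closed and 31.2% of all peaks, so the share among these genes was that of opened peaks at large. A match is a description and not a bound site. The palindromic Smad-binding element GTCTAGAC was in 2 of the 68 peaks, the start-site peak of Smad7 and an Acvr2a intron peak 5.37 kb downstream, and in 0.267% of all peaks, and the short element CAGACA, on both strands, was in 11 of 68 (16.2%) against 26.5% of all peaks. The STAT core TTCNNNGAA was in 8 of 68 (11.8%, against 12.4% of all peaks). Of the 15 opened peaks 5 (33.3%) overlapped a peak of the sorted table, as did 29.2% of all opened peaks, and of the 7 closed peaks 7 did, against 76.8% of all closed peaks. CTCF CUT&RUN peaks of AgRP nuclei, from 1 sample, overlapped 11 of the 68 peaks (16.2%, against 17.9% of all peaks). A CUT&RUN list whose file names no antibody, taken here as that of IRF3 in AgRP nuclei with the constitutively active IRF3-2D, overlapped 3 (4.41%, against 8.42%).

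The sequences of 5 of these peaks are given to show where AP-1 matches lie in some of the peaks that opened. Not every opened peak held a match. The others are Acvr1c peaks that leptin closed, which held none. Most peaks of any kind held no match, so nothing about leptin is read from its absence there. All are the plus strand of GRCm38 (mm10), the central 300 bases or the whole of a shorter peak, and capitals mark matches to TGANTCA. The first was the Acvr1c peak 11.0 kb upstream (chr2:58368975-58369274, intergenic), closed after leptin and with no match, and the next was the Acvr1c peak 32.4 kb upstream (chr2:58390448-58390747, within Acvr1), also closed after leptin and with no match. The Acvr1c peak 30.8 kb upstream (chr2:58388825-58389124, within Acvr1), opened by fasting, held TGACTCA at bases 140 to 146. The Smad3 intron peak 13.8 kb downstream of the start (chr9:63743913-63744177) held 0.124 and 0.360 CPM in fed, 1.78 and 4.36 in fasted and 4.23 and 2.73 in leptin-treated nuclei (fasting change 3.46, FDR 0.00205 by edgeR), with TGACTCA at bases 143 to 149. The Tgfbr1 peak 49.3 kb upstream (chr4:47303481-47303780, within Col15a1) held 0.745 and 0.216 CPM in fed, 3.19 and 4.54 in fasted and 5.55 and 5.47 in leptin-treated nuclei (3.21, FDR 0.000724 by edgeR), with TGAGTCA at bases 89 to 95 and TGACTCA at bases 125 to 131. The Smad3 and Tgfbr1 peaks held under 1 CPM in fed nuclei and reached the level for testing through the fasted and leptin-treated libraries. The size of their fasting changes is therefore uncertain.
Acvr1c 11.0 kb upstream: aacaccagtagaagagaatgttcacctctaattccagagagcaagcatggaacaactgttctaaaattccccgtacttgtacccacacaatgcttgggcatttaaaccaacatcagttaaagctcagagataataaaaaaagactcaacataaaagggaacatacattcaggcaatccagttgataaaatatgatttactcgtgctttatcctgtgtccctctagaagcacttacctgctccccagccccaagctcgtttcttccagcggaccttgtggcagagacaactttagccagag
Acvr1c 32.4 kb upstream: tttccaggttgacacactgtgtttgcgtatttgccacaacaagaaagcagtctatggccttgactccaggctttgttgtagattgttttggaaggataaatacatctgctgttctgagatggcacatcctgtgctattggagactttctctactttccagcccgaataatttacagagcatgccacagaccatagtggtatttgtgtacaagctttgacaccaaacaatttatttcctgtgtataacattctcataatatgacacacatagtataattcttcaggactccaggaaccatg
Acvr1c 30.8 kb upstream: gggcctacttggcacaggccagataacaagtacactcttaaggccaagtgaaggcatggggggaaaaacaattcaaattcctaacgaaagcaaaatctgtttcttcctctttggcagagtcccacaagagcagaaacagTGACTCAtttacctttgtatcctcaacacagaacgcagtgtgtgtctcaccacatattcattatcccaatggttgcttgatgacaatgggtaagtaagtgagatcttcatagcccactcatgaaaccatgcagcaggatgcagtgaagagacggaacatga
Smad3 13.8 kb downstream: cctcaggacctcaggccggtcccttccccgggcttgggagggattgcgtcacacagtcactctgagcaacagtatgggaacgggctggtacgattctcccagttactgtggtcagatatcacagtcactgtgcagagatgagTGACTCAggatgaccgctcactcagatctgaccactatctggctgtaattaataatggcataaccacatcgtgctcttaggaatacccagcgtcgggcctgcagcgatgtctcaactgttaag
Tgfbr1 49.3 kb upstream: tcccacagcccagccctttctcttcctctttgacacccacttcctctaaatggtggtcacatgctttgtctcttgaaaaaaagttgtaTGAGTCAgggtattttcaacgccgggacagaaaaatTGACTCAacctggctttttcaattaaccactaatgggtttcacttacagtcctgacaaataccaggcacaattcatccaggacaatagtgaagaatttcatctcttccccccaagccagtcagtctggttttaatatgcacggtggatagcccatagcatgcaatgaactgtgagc

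Other peaks of these genes changed with fasting, most of them with calls that rested on 1 or more single libraries. At Smad3 the intron peak 39.0 kb downstream opened with fasting (2.80), while those 22.1 kb (-1.44) and 24.6 kb (-1.21) upstream closed. The peak 22.1 kb upstream was also less open in AgRP-positive than AgRP-negative nuclei (-1.58). At Tgfbr1 the peak 42.0 kb upstream rose from 5.09 and 11.2 CPM in fed to 22.2 and 22.3 CPM in fasted nuclei (1.36), and it was also more open in AgRP-positive nuclei. At Acvr1b the intron peaks 9.41 kb (1.54) and 24.1 kb (1.19) downstream opened, and peaks 36.2 kb downstream (-1.41) and 13 kb upstream (-1.17) closed. The Inhba peak 3.77 kb upstream opened (1.86), as did the Acvr2a intron peak 34.8 kb downstream (1.53), and the Inhbb peak 35.8 kb upstream closed (-1.14). Of these calls, those of the Smad3 peaks 39.0 kb downstream and 22.1 kb upstream and of the Tgfbr1 peak were kept with any 1 library left out. The RNA of Smad3, Tgfbr1, Acvr1b, Acvr2a and Inhbb showed no call with fasting beside these peaks.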

How the data were processed

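The authors deposited read counts per gene for TRAP RNA (HISAT2 to mm10, featureCounts on an annotation altered to limit overlaps between transcripts, rRNA depletion and a Nextera XT kit that keeps no strand) and read counts per merged peak for ATAC-seq (Bowtie2, duplicates removed, MACS2, bedtools), with versions not given in the sources used here. The SEACR regions deposited by the authors carry a signal value, and the CTCF peaks deposited by the authors a MACS2 fold over background; only the positions of both were used. Deposited log2 CPM tables of the same libraries, and ARC input RNA, were not used here.

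Counts were scaled by TMM and tested in edgeR 4.0.16 (R 4.3.3, quasi-likelihood) over all features with a mean over 1 CPM, with state, line or sort as the only term, after a test on simulated data. Features were called at an FDR under 0.05 and a log2 fold change past 0.5. Gene starts, exons and sequences came from the GRCm38 annotation and genome, read with pysam 0.24.0 and pandas 2.3.3. The promoter table of RefSeq matched 7 of the 9 genes and was not needed. Each sample pooled 4 mice, so p-values measure the spread between pools. The study lost 1 fed AgRP sample at library preparation.

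AgRP RNA libraries of the same number deviated together from their state means (10 pairs, r 0.536 to 0.814, median 0.700, against -0.642 to 0.642 for 30 other pairs). The ranges overlap, as fed library 3 and leptin-treated library 2 reached 0.642 and fasted and leptin-treated library 2 reached 0.536. The highest value, 0.814, was between libraries 4, which are high in astrocyte markers. The number was taken to pair the libraries, which rests on these data and on the shared label number. Alternatives were DESeq2 1.42.0, library size alone, no filter, the replicate block, a 20 kb window for peaks, all states in the comparison of lines, each library left out, and, chosen after the data were seen, leaving out the libraries high in astrocyte markers. The genes and the lists were chosen with earlier results of these data known. Named were the 9 genes, the other pathway genes called in the AgRP comparisons or between lines, at most 5 each way (1 result is not reported here), the genes most like each of the 9, and for each gene its start-site peak and at most 2 called peaks each way. The Acvr1c peaks 32.3 kb upstream and 30.4 kb downstream in sorted nuclei, the peaks with GTCTAGAC, and Nodal, Nog and Chrd were named after their values were seen, as were the peaks set side by side with them. Pathway genes absent by symbol from the table, Cfc1, Fstl3 and Id4, were not analysed here.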

Additional observations from a re-analysis of the deposited data

Results flagged for a closer look

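Inhbb in the AgRP fasted library 2, at 3.16 CPM, lay far from the other 3 fasted libraries, which held 1.84 to 2.05 CPM. Smad3 in the AgRP leptin-treated library 4, at 26.8 CPM, lay far from the other 3, which held 12.1 to 14.2 CPM, and this is a library high in astrocyte markers. They were 2 of 32 groups of 4 libraries in which the gap between the outermost library and its neighbour was compared with the whole range (critical share 0.829), and chance passes about 1 in 20 groups. The fasting effect on Cdkn1a was larger in AgRP than in POMC neurons by 2.26 on the log2 scale (FDR 0.0271 by edgeR). With 1 library left out the difference ranged from 2.02 to 2.46, and the call was lost in 9 of 11 fits (FDR up to 0.137) and kept without AgRP fasted library 4 or AgRP fed library 1.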

How the results depend on the processing

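Of the 371 values recomputed under alternatives other than leaving out 1 library, 342 kept their direction and side of the threshold, as did 312 of 437 with 1 library left out. With the replicate block, 2 of the 8 genes were called after fasting in AgRP neurons (1 without), 1 from fasted to leptin-treated (0 without) and 1 in the difference of fasting effects between lines (0 without). The block changed no other call of the 9 genes and turned Smad3 after fasting (0.0434). POMC libraries of the same number also deviated together (r 0.733 to 0.770, with 2 libraries a state), and with the block 0 of the 8 genes were called in POMC neurons. In ATAC-seq across states same-numbered libraries correlated at -0.00228 to 0.165, so no pairing by number was seen there. Sorted positive and negative nuclei shared pools by design, and the main fit of sort alone did not use this pairing. Their same-numbered libraries correlated at 0.0988, and with 2 libraries a group this cannot set the design aside. For fed AgRP against fed POMC neurons alone no block was fitted, because these libraries share fewer than 2 replicate numbers. With all states fitted, and the libraries high in astrocyte markers included, 3 genes were called between lines and Bmp3 turned (-0.43). That fit compares the lines over all states and not in fed mice alone. Mean Bmp3 in AgRP and POMC neurons was 26.6 and 22.2 CPM in fed, 11.5 and 18.4 in fasted and 11.9 and 20.1 in leptin-treated mice.

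Within 20 kb, 9 peaks were called with fasting, 8 in leptin against fed and 11 in sorted nuclei, since fewer peaks lie in that window. Acvr2a after fasting turned with DESeq2 (-0.0136), library size alone (-0.0689), no filter (-0.0153) and without the libraries high in astrocyte markers (-0.161). Tgfbr1 after fasting turned with library size alone (-0.0031) and without those libraries (-0.041), as did Acvr1c in leptin against fed without them (-0.0028). The cause of these turns was not tested.

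With 1 library left out, where a lone library of a group was taken to vary like the other groups, 0 to 1 genes were called in fasting and in leptin against fed, 13 to 16 peaks in fasting, 0 to 3 in leptin against fasted and 14 to 17 in sorted nuclei. The fasting change ranged from -0.271 to 0.0285 for Acvr1b, -0.279 to 0.112 for Acvr2a, -0.403 to 0.224 for Smad3 and -0.076 to 0.149 for Tgfbr1. Bmp3 ranged from -0.0794 to 0.365 in leptin against fasted and Acvr1c from -0.117 to 0.176 in leptin against fed. The Acvr1c peak 11.0 kb upstream ranged from -0.767 to 0.233 with fasting, and in leptin against fasted the Acvr1c peak 30.8 kb upstream ranged from -0.198 to 0.0111 and the Bmp3 peak 22.4 kb upstream from -0.23 to 0.112. These ranges cross 0, so no direction is read from them. Inhba, at about 1 CPM or less, lay under the level set for testing, and depth limited the ATAC-seq peaks with under 1 CPM in fed nuclei.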
